A study of Mus musculus with 12 samples.

Results

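The SOCS family comprises 8 genes in the mouse, Cish and Socs1 to Socs7, and was chosen by name: every array probe whose gene name was one of these symbols was taken. The array carried 14 such probes, all 8 symbols were present among its 34650 gene names, and all 8 were among the 16497 genes bright enough to be tested. SOCS proteins are inhibitors of cytokine signalling. A cytokine such as IL-4 activates Janus kinases (JAKs) at its receptor, these phosphorylate STAT transcription factors, and the STATs switch on SOCS genes, whose products bind the receptor or the kinase and damp the signal. Each member has an SH2 domain that binds phosphotyrosine and a C-terminal SOCS box that recruits a ubiquitin ligase. CIS (the product of Cish) and SOCS2 are classical STAT5 targets, SOCS1 and SOCS3 carry in addition a short region that inhibits the kinase directly, and SOCS4 to SOCS7 are less closely tied to cytokine induction. IL-4 signals in B cells mainly through STAT6.

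The cells were splenic B cells, purified by negative selection. Donors were female BALB/c mice aged 9 weeks, of wild-type genotype or deficient in STAT6 (labelled STAT6 ko and called knockout here; the labels do not describe the allele). All cultures, controls included, received an anti-CD40 antibody at 10 µg/ml and lipopolysaccharide at 2 µg/ml over 4 days, so that the controls were activated and not resting B cells. IL-4 at 25 ng/ml was present or absent, which made 4 groups of 3 arrays, a control group and an IL-4 group of each genotype. The labels call the samples triplicates without saying whether each came from a different animal, so the p-values measure only the spread between these samples, which may be technical.

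RNA was measured on 12 single-colour Agilent arrays. Values are the log2 signal of a probe minus the 75th percentile of its array, so that 0 is the 75th percentile. Between 40.7% and 44.0% of spots were well above background on each array, and none was saturated. The B cell markers Cd79a, Cd79b, Ms4a1 and Pax5 were well above background on all 12 arrays. The arrays lay on 2 slides. The 6 wild-type arrays shared the first with knockout controls 1 and 2, and the second slide carried the remaining knockout control (number 3) together with all 3 arrays of the knockout treated with IL-4. Genotype and slide therefore overlap in the IL-4 groups, and values with slide as a block are given beside the knockout results of the SOCS genes. Stat6, the targeted gene, was at 3.11 to 3.42 on the wild-type arrays and at 1.13 to 1.59 on the knockout arrays by its brightest probe. It was lower in the knockout control than in the wild-type control by its 3 probes, by -0.88 to -2.28 on the log2 scale. Whether these probes lie in the deleted region is not stated in the sources used here.

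Promoter sequences of 4 of the 8 members were in the RefSeq table used here (GRCm38.p6), as 300 bases from 250 before to 50 after the start of the gene. They are shown because 3 of them belong to members with a large IL-4 response. The dimeric STAT motif TTCNNNGAA was searched, and so was the variant that STAT6 is known to bind, in which 4 bases and not 3 separate TTC from GAA. Both motifs read the same on either strand. Capitals mark each TTCNNNGAA match, and no match of the longer motif was present in these 4 windows.
Cish, chr9:107296409-107296708, plus strand: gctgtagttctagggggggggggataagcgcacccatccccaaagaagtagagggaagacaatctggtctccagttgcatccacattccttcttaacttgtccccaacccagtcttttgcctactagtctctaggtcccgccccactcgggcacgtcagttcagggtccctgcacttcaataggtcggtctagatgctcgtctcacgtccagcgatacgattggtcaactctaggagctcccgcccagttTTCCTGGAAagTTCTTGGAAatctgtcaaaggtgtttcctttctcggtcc
Socs3, chr11:117969317-117969616, minus strand: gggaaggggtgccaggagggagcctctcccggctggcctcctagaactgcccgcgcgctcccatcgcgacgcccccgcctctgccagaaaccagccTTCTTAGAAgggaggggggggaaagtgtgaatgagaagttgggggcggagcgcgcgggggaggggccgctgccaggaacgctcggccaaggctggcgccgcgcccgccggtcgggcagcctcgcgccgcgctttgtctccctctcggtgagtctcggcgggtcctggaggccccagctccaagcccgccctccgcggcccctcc
Socs1, chr16:10785487-10785786, minus strand: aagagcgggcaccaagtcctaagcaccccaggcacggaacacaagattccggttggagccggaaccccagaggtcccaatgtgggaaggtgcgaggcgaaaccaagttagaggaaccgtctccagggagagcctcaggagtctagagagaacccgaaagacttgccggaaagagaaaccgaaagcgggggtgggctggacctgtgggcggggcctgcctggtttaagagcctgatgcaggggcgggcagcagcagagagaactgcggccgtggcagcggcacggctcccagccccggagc
Socs4, chr14:47276670-47276969, plus strand: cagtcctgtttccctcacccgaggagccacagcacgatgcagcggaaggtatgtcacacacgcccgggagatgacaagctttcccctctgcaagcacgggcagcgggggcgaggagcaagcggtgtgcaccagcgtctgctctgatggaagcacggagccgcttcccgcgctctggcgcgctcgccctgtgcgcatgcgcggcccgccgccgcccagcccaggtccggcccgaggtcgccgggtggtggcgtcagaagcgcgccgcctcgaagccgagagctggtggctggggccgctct
The Cish window held 2 matches, TTCCTGGAA beginning at position 1 of the gene and TTCTTGGAA beginning at position 12. The Socs3 window held 1 match, TTCTTAGAA, beginning 154 bases before the start. The Socs1 and Socs4 windows held none. Among 32851 promoters of the same length, 8.30% held TTCNNNGAA, 0.457% held it at least 2 times and 6.95% held the longer motif. Both motifs were present in 0.679% of promoters. A match is a run of letters, not a measured binding site, and its absence describes this window alone.

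In wild-type cells, IL-4 raised the RNA of 5 of the 8 members and lowered none. Cish rose 127-fold, Socs2 62.4-fold, Socs3 6.23-fold, Socs1 4.24-fold and Socs7 1.44-fold. The other 3, Socs4, Socs5 and Socs6, did not pass the test. Of all genes tested, 57.1% passed the same test (26.4% higher and 30.8% lower), so passing it was common on these arrays. A rise of at least 2-fold was less common: 4 members had one, against 5.72% of all genes. The median log2 change was 1.30 over the 8 members and -0.04 over all genes tested. The call is limma's moderated test on all 12 arrays with Benjamini-Hochberg adjustment over the 16497 genes, at an adjusted p under 0.05. In RNA from a whole culture, a change in the share of cells that express a gene cannot be told apart from a change in RNA per cell.

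Cish encodes CIS, which competes with STAT5 for docking sites on cytokine receptors. Its probe A_51_P470715 (mm9 chr9:107204196-107204255) read -0.87, -0.73 and -0.71 on the 3 wild-type control arrays and 6.26, 6.19 and 6.22 on the wild-type IL-4 arrays. In the knockout it read -0.35, -0.12 and 0.07 without IL-4 and 0.25, 0.39 and 0.87 with it. The 3 wild-type IL-4 arrays stood far above the other 9, and no 2 groups overlapped. The group means were -0.77 ± 0.09, 6.22 ± 0.03, -0.13 ± 0.21 and 0.51 ± 0.33 (SD, n = 3 each). The wild-type change was 6.99 ± 0.15 (log2, SE, adjusted p = 1.41e-10), and 4 genes of all those tested had a larger rise.

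Socs2 encodes a brake on growth hormone receptor signalling. It was measured by 4 probes, of which A_51_P107362 (mm9 chr10:94875066-94875125, printed in 10 copies on the array) was the brightest and stood for the gene. That probe read -1.05, -0.88 and -0.86 in the wild-type control and 5.10, 4.98 and 5.01 with IL-4. In the knockout it read -1.23, -1.05 and -0.79 without IL-4 and -0.70, -0.71 and -0.56 with it. Only the wild-type IL-4 arrays were above the 75th percentile of their array. The wild-type change was 5.96 ± 0.10 (log2, SE, adjusted p = 3.79e-11), and 16 genes had a larger rise.

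The other probes allowed the Socs2 change to be read again on the same arrays. A_55_P1992834 (mm9 chr10:94875187-94875246) gave a wild-type log2 change of 5.87, and A_55_P1992838 (mm9 chr10:94875468-94875527) gave 5.82. The sequence of the latter, as deposited and on the minus strand, shows what was hybridised.
A_55_P1992838: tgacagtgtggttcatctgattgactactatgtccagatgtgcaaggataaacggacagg
The probe A_55_P2072586 (mm9 chr10:94848005-94848064) is assigned by the files to a different transcript under the same gene name. It was well above background on the 3 wild-type IL-4 arrays only, where it read -0.73, -0.81 and -0.65. It was kept through that group alone, and on the wild-type controls it was not well above background, so its fold is uncertain. Set against the lowest signal of any probe well above background on each control array, the IL-4 mean was 8.45-fold higher. A probe not well above background can read higher than that lowest signal, so 8.45 is not a strict lower limit.

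Socs1 encodes the inhibitor that binds JAK1, JAK2 and TYK2 and is needed to restrain interferon and IL-4 signalling. Its probe A_51_P279606 (mm9 chr16:10783951-10784010) read 2.03, 2.12 and 2.12 in the wild-type control and 4.18, 4.14 and 4.20 with IL-4. In the knockout it read 1.82, 1.57 and 1.58 without IL-4 and 2.36, 2.25 and 2.03 with it. The knockout IL-4 arrays overlapped the wild-type control arrays, while the knockout controls lay below both. The wild-type change was 2.09 ± 0.09 (log2, SE, adjusted p = 1.77e-08).

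Socs3 encodes the main inhibitor of signalling through gp130, the shared chain of the IL-6 family receptors. Its probe A_51_P474459 (mm9 chr11:117827480-117827539) read 0.75, 0.88 and 0.90 in the wild-type control and 3.49, 3.45 and 3.52 with IL-4. In the knockout it read 1.50, 1.96 and 2.24 without IL-4 and 1.85, 1.77 and 2.24 with it. Both knockout groups lay between the wild-type groups and overlapped each other. The wild-type change was 2.64 ± 0.17 (log2, SE, adjusted p = 3.86e-07).

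**Figure D1:**
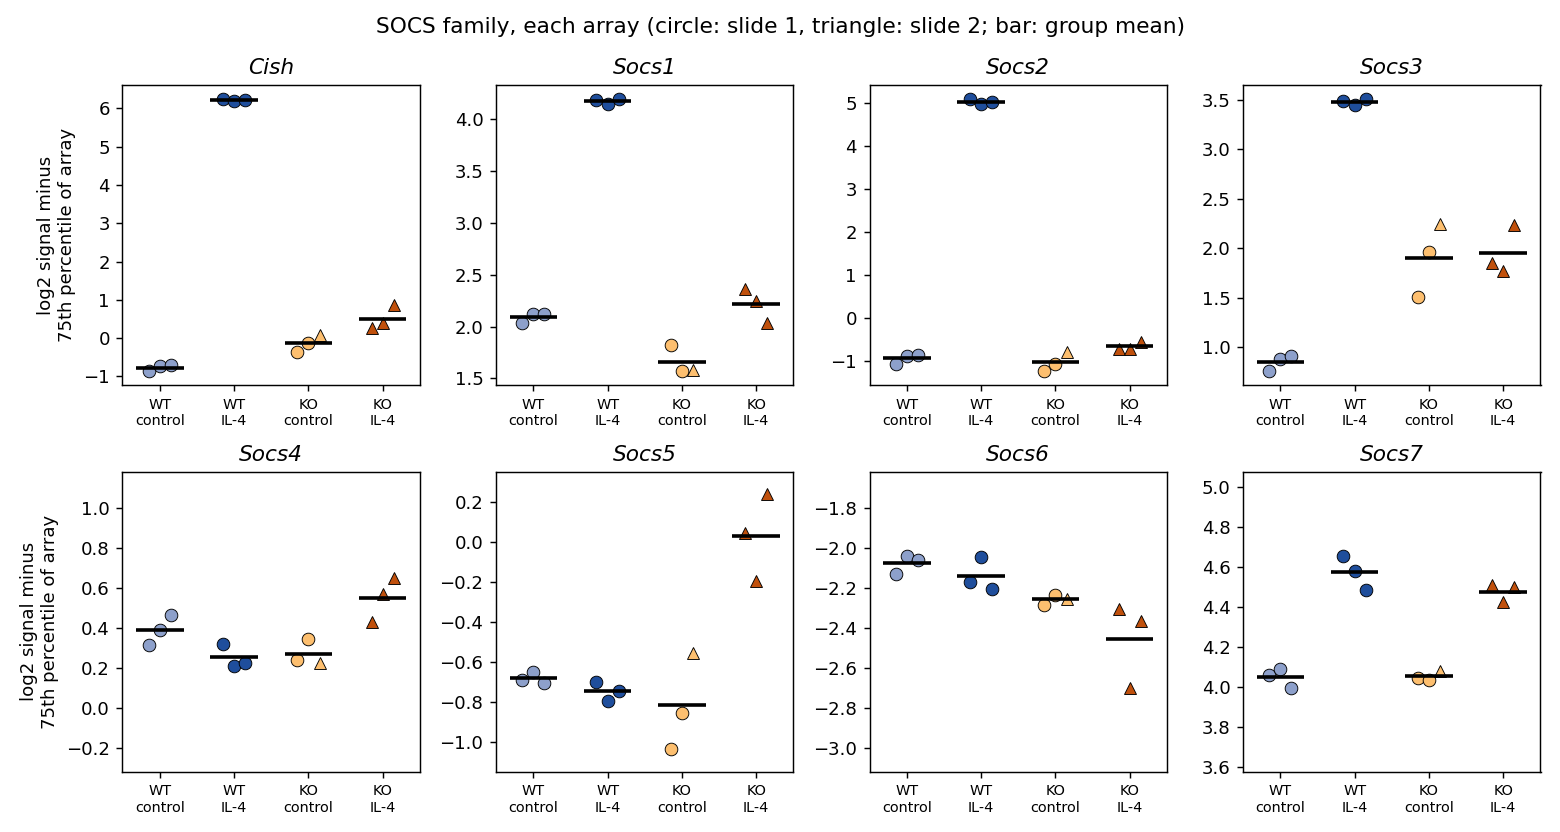
Log2 signal minus the 75th percentile of the array (vertical axis, a separate scale in each panel) of the 8 SOCS family genes on each of the 12 arrays, by group; circles are arrays of the first slide, triangles of the second, and bars are group means. The wild-type IL-4 arrays stand above all others for Cish, Socs1, Socs2 and Socs3, at 6.19 or more for Cish, while Socs5 is highest in the knockout IL-4 group.

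Socs7 encodes a member known to bind insulin receptor substrates and adaptor proteins. Its probe A_55_P2034893 (mm9 chr11:97259763-97259822) read 4.06, 4.09 and 3.99 in the wild-type control and 4.66, 4.58 and 4.48 with IL-4. The knockout arrays read 4.04, 4.03 and 4.08 without IL-4 and 4.51, 4.42 and 4.50 with it. Every IL-4 array was above every control array in both genotypes. The wild-type change was 0.52 ± 0.05 (log2, SE, adjusted p = 1.35e-05).

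Socs4 and Socs5 are close relatives with long N-terminal regions, known to act on the epidermal growth factor receptor. The Socs4 probe A_55_P1973886 (mm9 chr14:47911161-47911220) read 0.31, 0.39 and 0.47 in the wild-type control and 0.32, 0.21 and 0.22 with IL-4, and the 2 groups overlapped. In the knockout it read 0.24, 0.34 and 0.22 without IL-4 and 0.43, 0.57 and 0.65 with it, without overlap. The wild-type log2 change of Socs4 was -0.14, with a 95% confidence interval of -0.29 to 0.01 (adjusted p = 0.108).

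The Socs5 probe A_52_P281033 (mm9 chr17:87536500-87536559) read -0.69, -0.65 and -0.71 in the wild-type control and -0.70, -0.80 and -0.75 with IL-4. In the knockout it read -1.04, -0.86 and -0.56 without IL-4 and 0.04, -0.20 and 0.24 with it. The 3 knockout IL-4 arrays were above the other 9, which overlapped each other. The wild-type log2 change was -0.07, with an interval of -0.34 to 0.21 (adjusted p = 0.677).

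Socs6, which binds the KIT receptor and other kinases, had 4 probes on the array, of which 1 was bright enough to be kept. That probe, A_55_P1969251 (mm9 chr18:89038580-89038639), read -2.13, -2.04 and -2.06 in the wild-type control and -2.17, -2.04 and -2.20 with IL-4. It read -2.28, -2.23 and -2.25 in the knockout control and -2.31, -2.70 and -2.36 in the knockout with IL-4. The wild-type groups overlapped, and all 6 knockout arrays were below all 6 wild-type arrays. The wild-type log2 change was -0.06, with an interval of -0.27 to 0.14 (adjusted p = 0.582).

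**Figure D2:**
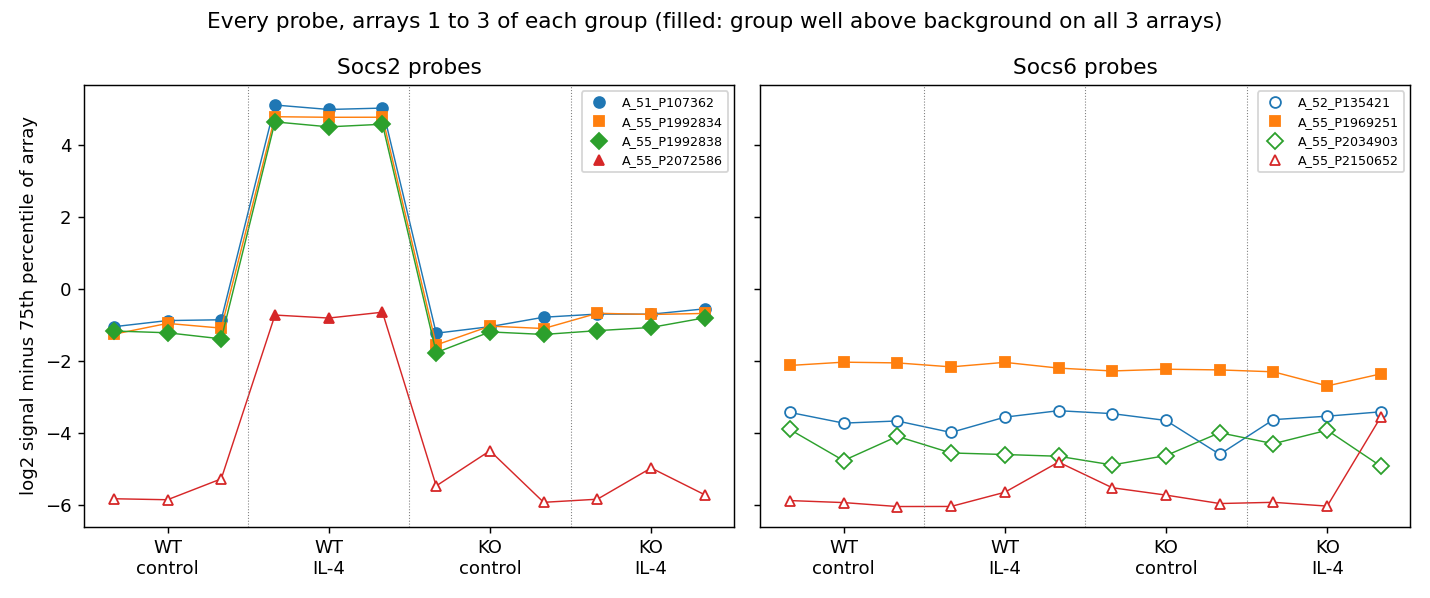
Log2 signal minus the 75th percentile of the array (vertical axis) of each Socs2 probe and each Socs6 probe on the 3 arrays of each group (horizontal axis); filled symbols mark groups in which every array was well above background. The Socs2 probes A_51_P107362, A_55_P1992834 and A_55_P1992838 rise together on the wild-type IL-4 arrays, by 5.82 to 5.96. The probe A_55_P2072586 is filled only there, so the size of its rise is uncertain, and 3 of the 4 Socs6 probes are open throughout.

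Markers of other cell types also moved with IL-4 in wild type, not all of a list in the same direction. The summed linear signal of the 4 macrophage and monocyte markers (3 of them above background on all arrays) was 23.2 to 24.5 in the wild-type control and 12.9 to 13.7 with IL-4. It was 21.3 to 22.7 in the knockout control and 30.5 to 32.2 with IL-4. In wild type Emr1 fell (-0.92), Cd14 rose (0.38, adjusted p = 0.0216), Csf1r did not pass (-0.12, adjusted p = 0.593) and Lyz2 was not tested. The summed signal of the 3 dendritic cell markers was 27.2 to 28.2 in the wild-type control and 10.3 to 10.8 with IL-4, and 31.2 to 39.3 and 35.5 to 43.1 without and with IL-4 in the knockout. In wild type Flt3 fell (-1.65), Zbtb46 rose (1.35), and Itgax, above background on 3 of the 12 arrays, rose as well (adjusted p = 2.99e-05). Markers of plasma cells, into which activated B cells differentiate, summed to 140.2 to 149 in the wild-type control and 231 to 236 with IL-4, and to 134 to 148 and 101 to 104 in the knockout, with all 4 above background on all arrays. In wild type Sdc1 (0.76), Xbp1 (0.87) and Irf4 (0.29) rose, and Prdm1 fell (-2.81, adjusted p = 9.18e-10). Of 5 T cell markers 4 were above background on all arrays, with Cd8a on none, and their sum lay between 1.99 and 2.75 in every group. In wild type Cd3d rose (0.73, adjusted p = 0.00121). The NK cell markers Ncr1 and Klrb1c, the granulocyte markers Ly6g and Mpo, and the mast cell marker Mcpt4 were above background on no array. Nkg7, the remaining NK cell marker, was above background on all 12 and fell in wild type (-0.28, adjusted p = 0.00364), while S100a8 was above it on 4 arrays, S100a9 on 1, Kit on 9 and Cpa3 on 2. The summed signal of the 3 mast cell markers, none above background on all arrays, was 0.363 to 0.413 in the wild-type control and 0.0508 to 0.0604 with IL-4, and Kit fell there (adjusted p = 4.02e-09). The part of these cell types in the results was not tested.

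In the knockout, the IL-4 responses of the SOCS genes were small: 6 members rose and none by 2-fold or more. Cish rose 1.56-fold, Socs1 1.47-fold, Socs2 1.29-fold, Socs4 1.22-fold, Socs5 1.80-fold and Socs7 1.34-fold. For Socs3 the log2 change was 0.05, with an interval of -0.33 to 0.43 (adjusted p = 0.840), and for Socs6 it was -0.20 (adjusted p = 0.109). Of all genes, 42.2% passed the test, 27.5% higher and 14.7% lower, and 0.788% were higher and 2.73% lower by at least 2-fold. The median over the 8 members was 0.40 against 0.05 over all genes.

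With slide as a block, the knockout response rests on knockout control 3 against the 3 IL-4 arrays of the same slide, and 4 members rather than 6 were called, against 33.3% of all genes under the block. Socs1 (0.63, adjusted p = 0.00592), Socs4 (0.33, adjusted p = 0.0310), Socs5 (0.59, adjusted p = 0.0129) and Socs7 (0.40, adjusted p = 0.00540) stayed past the threshold. Cish was at 0.43 (adjusted p = 0.125) and Socs2 at 0.13 (adjusted p = 0.357), neither past the threshold. The Socs3 value was -0.29 (adjusted p = 0.279) and the Socs6 value -0.20 (adjusted p = 0.277). Without knockout IL-4 array 1, the Socs6 change of -0.27 passed (adjusted p = 0.0482). The small Cish and Socs2 responses in the knockout are therefore calls of the fit without the block.

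The difference between the genotypes' IL-4 responses was tested directly as an interaction. It was larger in wild type for Cish, Socs1, Socs2 and Socs3 and larger in the knockout for Socs4 and Socs5. The difference in log2 response, wild type minus knockout, was 6.35 ± 0.21 for Cish (SE, adjusted p = 9.80e-09). It was 5.59 ± 0.15 for Socs2 (adjusted p = 1.81e-09), 2.59 ± 0.24 for Socs3 (adjusted p = 1.49e-05) and 1.53 ± 0.13 for Socs1 (adjusted p = 6.03e-06). The knockout log2 response was 9.13% of the wild-type one for Cish, 6.21% for Socs2, 1.88% for Socs3 and 26.8% for Socs1. Of all genes, 44.8% passed the interaction test, and 5.61% had a positive difference of at least 2-fold, as these 4 members had. A deeper fall in the knockout also gives a positive difference. A negative difference, which a deeper fall in wild type also gives, was of that size for 5.03% of genes and, in this fit, for no member. Socs5 passed 2-fold in that direction under some alternative settings.

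Socs4 and Socs5 went the other way. The difference was -0.42 ± 0.10 for Socs4 (SE, adjusted p = 0.00563) and -0.91 ± 0.18 for Socs5 (adjusted p = 0.00217), and 28.3% of all genes were called in that direction. With slide as a block the values were -0.47 (adjusted p = 0.0133) and -0.65 (adjusted p = 0.0145). The 4 positive differences were 6.56 for Cish, 5.83 for Socs2, 2.93 for Socs3 and 1.45 for Socs1 under the block, all past the threshold, as were 42.1% of all genes.

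For Socs7 the responses of the genotypes were not told apart: the difference was 0.10 (interval -0.07 to 0.27, adjusted p = 0.303). The knockout response of Socs7 was 80.8% of the wild-type one on the log2 scale. The interval allows a difference of up to 0.27 in log2 response. For Socs6 the difference was 0.14 (interval -0.15 to 0.42, adjusted p = 0.419). The slide block gave 0.13 for Socs7 (adjusted p = 0.308) and 0.14 for Socs6 (adjusted p = 0.528). The genotypes' responses share no arrays, and each comparison uses its own control group.

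**Figure D3:**
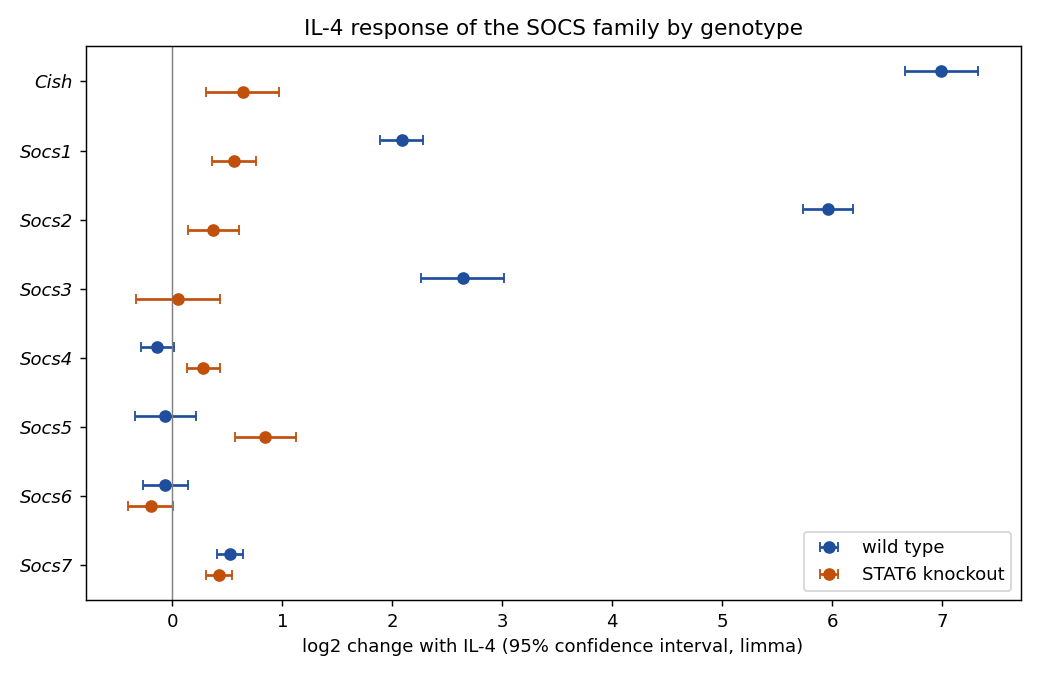
Log2 change with IL-4 (horizontal axis) of each SOCS family gene in wild-type and STAT6 knockout B cells; points are limma estimates and bars their 95% confidence intervals. The wild-type intervals of Cish, Socs1, Socs2 and Socs3 lie wholly above 1.89 or higher, the knockout interval of Cish is 0.30 to 0.97, and the Socs7 intervals overlap.

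**Figure D4:**
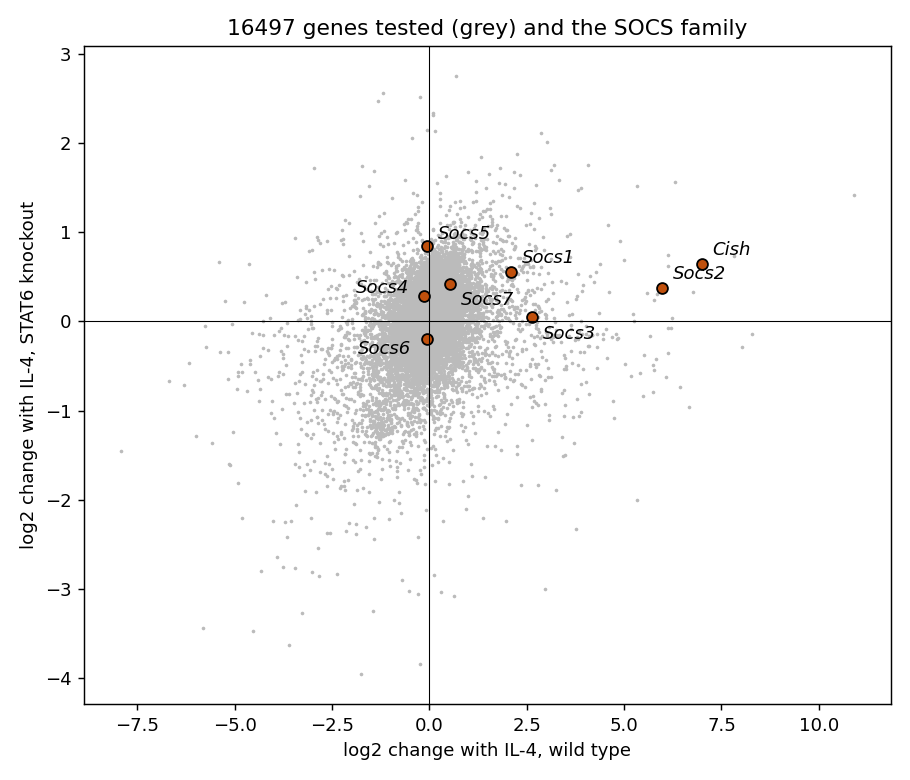
Log2 change with IL-4 in wild type (horizontal axis) against that in the STAT6 knockout (vertical axis) for the 16497 genes tested (grey points), with the SOCS family marked. Cish and Socs2 lie at the right edge of all genes with knockout changes of 0.64 and 0.37, and Socs5 lies near 0 on the horizontal axis at 0.85 on the vertical.

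Without IL-4, the knockout cells differed from wild type in 3 members. Socs3 was higher in the knockout by 1.05 ± 0.17 (log2, SE, adjusted p = 0.00765), a 2.08-fold difference, and Cish by 0.63 ± 0.15 (adjusted p = 0.0288). Socs1 was lower by 1.35-fold (-0.43 ± 0.09, adjusted p = 0.0200). The median over the 8 members was -0.11, against -0.04 over all genes, and 11.7% of all genes were called (4.73% higher and 6.96% lower). At 2-fold or more, 1 member was called, against 1.18% of all genes (0.837% higher). The other 5 members did not pass: Socs2 differed by -0.09, Socs4 by -0.12, Socs5 by -0.14, Socs6 by -0.18 and Socs7 by 0.00.

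The knockout controls spread more than the wild-type ones for Socs3 (SD 0.37 against 0.08). With slide as a block, which leaves knockout controls 1 and 2 against the wild-type controls of their slide, Socs3 stayed past the threshold at 0.88 (adjusted p = 0.0199). Cish, at 0.53 (adjusted p = 0.106), and Socs1, at -0.40 (adjusted p = 0.0768), did not. The other 5 members stayed uncalled under the block, at -0.21 for Socs2, -0.10 for Socs4, -0.26 for Socs5, -0.18 for Socs6 and -0.01 for Socs7, and 2.53% of all genes were called. Calls for Cish and Socs1 were also lost when single control arrays were left out, as were many calls over all genes. The number of all genes called fell from 1929 to between 386 and 595 without a wild-type control or knockout control 2 or 3. Without knockout control 1 it rose to 3721. The Cish call was lost without any 1 of the 3 wild-type controls or of knockout controls 2 and 3, with differences of 0.53 to 0.67 and adjusted p of 0.0791 to 0.105. The Socs1 call was lost without any 1 of wild-type controls 2 and 3 and knockout controls 2 and 3 (-0.39 to -0.42, adjusted p of 0.0702 to 0.0774). Without knockout control 3, the Socs3 difference was 0.88 and no longer 2-fold, and it kept its call.

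With IL-4 present, 7 members differed between the genotypes, 4 of them by over 2-fold and all 4 lower in the knockout. Cish was 52.6-fold lower, Socs2 51.5-fold, Socs1 3.89-fold and Socs3 2.90-fold, with adjusted p of 6.44e-10, 5.69e-11, 3.34e-08 and 3.18e-05. The difference for Socs5 was 0.78, higher in the knockout (adjusted p = 4.58e-04), and that for Socs4 was 0.30 (adjusted p = 0.00416). Socs6 was lower at -0.32 (adjusted p = 0.0149) and Socs7 differed by -0.10 (adjusted p = 0.156). Of all genes, 51.1% were called in this comparison (29.8% higher and 21.3% lower in the knockout), and 9.68% differed by at least 2-fold, 4.63% higher and 5.05% lower. The median over the 8 members was -0.93, against 0.06 over all genes.

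The wild-type and knockout IL-4 arrays lay on different slides, so no value within a slide could be had. The slide term of the block rests on knockout control 3 against knockout controls 1 and 2, the only group on both slides. With slide as a block, the call remained for Cish (-6.03), Socs2 (-6.04), Socs1 (-1.85) and Socs3 (-2.05). It was lost for Socs4 (0.37, adjusted p = 0.0508), Socs5 (0.39, adjusted p = 0.131) and Socs6 (-0.32, adjusted p = 0.190). Socs7 was at -0.14 (adjusted p = 0.326), and 18.1% of all genes were called higher and 13.9% lower. In the authors' deposited table of normalized values Socs6 differed by -0.01, and without wild-type IL-4 array 2 by -0.27 (adjusted p = 0.0569), neither of which passed.

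The groups fell into orders of mean level that differed between the members. For Cish the order was wild-type IL-4, knockout IL-4, knockout control and wild-type control, with no overlap of neighbours. For Socs1 it was wild-type IL-4, knockout IL-4, wild-type control and knockout control, with overlap of the second and the third. For Socs2 it was wild-type IL-4, knockout IL-4, wild-type control and knockout control, the last pair overlapping. For Socs3 it was wild-type IL-4, knockout IL-4, knockout control and wild-type control, with the knockout groups overlapping. Socs4 neighbours all overlapped. The arrays of compared groups did not overlap for 5 members in the wild-type response (69.2% of all genes), 7 in the knockout response (46.5%), 4 between the genotypes without IL-4 (38.3%) and 7 with IL-4 (58.7%). The percentages are the share of all genes without overlap, so that lack of overlap was common.

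Over the 12 arrays, the levels of Cish, Socs1, Socs2 and Socs3 varied together. Pearson's r was 0.991 between Cish and Socs2, 0.978 between Socs1 and Socs2, 0.961 between Cish and Socs1, 0.929 between Cish and Socs3, 0.880 between Socs2 and Socs3 and 0.803 between Socs1 and Socs3. Socs7 had r of 0.713 to 0.769 with these 4 genes. For Socs4 and Socs5, both with their highest mean in the knockout IL-4 group, r was 0.780. These are descriptions, since the 12 arrays fall into 4 groups and are not independent of each other. Among tested genes with a RefSeq symbol or synonym, those with the pattern most like Cish were Dnaaf2 (r = 0.998), Prkca (0.997) and Gif (0.996). For Socs2 they were B4galt4 (0.999), St7 (0.998) and Mapkapk3 (0.997), and for Socs1 Treml2 (0.996), Nrp2 (0.996) and Arl8a (0.995). For Socs3 they were Pard6g (0.995), Lcorl (0.989) and Plbd2 (0.987). The best likeness was lower for Socs5 (Cd2ap 0.978, Fars2 0.977, Ehd1 0.969) and for Socs4 (Itfg2 0.923, 6230400D17Rik 0.917, Epsti1 0.907).

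The genes that act with the SOCS family were read from lists. Their counts are to be set against all genes, of which 26.4% rose and 30.8% fell in wild type (median -0.04) and 27.5% rose and 14.7% fell in the knockout (median 0.05). With the slide block, 21.5% rose and 11.8% fell in the knockout. The 11 core JAK and STAT genes were all tested, and with IL-4 in wild type 5 of 11 rose and 4 fell, against 26.4% and 30.8% of all genes, with a median of 0.19. In the knockout 4 rose and 2 fell, with a median of 0.03. Stat5a, a transcription factor that drives Cish and Socs2 in other cells, rose 4.55-fold in wild type (adjusted p = 9.88e-08) and 1.40-fold in the knockout (adjusted p = 0.00765). Stat5b, its close relative, rose 2.54-fold in wild type (adjusted p = 2.90e-07) and 1.27-fold in the knockout (adjusted p = 0.00764). Stat4, a mediator of IL-12 signalling, rose 1.70-fold and 1.56-fold (adjusted p = 5.44e-06 and 6.18e-05), and the interaction was not past the threshold (adjusted p = 0.350). Stat6 itself changed by 0.19 in wild type (log2, adjusted p = 0.0733). When slide was a block, 2 core genes rose and 1 fell in the knockout, and Stat5a (0.26, adjusted p = 0.173) and Stat5b (0.17, adjusted p = 0.178) were not past the threshold there.

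Of 3 IL-4 receptor chains 2 were tested, and 1 of them rose in each genotype. Il4ra, the chain that binds IL-4, was 7.63-fold higher with IL-4 in wild type (adjusted p = 5.54e-07) and changed by -0.24 in the knockout (log2, adjusted p = 0.355). Il2rg, the common gamma chain, changed by -0.09 in wild type (adjusted p = 0.0913) and rose 1.33-fold in the knockout (adjusted p = 6.14e-05). Under the slide block, Il4ra changed by -0.76 in the knockout (adjusted p = 0.00878), past the threshold.

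Of 11 other inhibitors of JAK-STAT signalling 10 were tested, and in wild type 4 of 10 rose and 4 fell (26.4% and 30.8% of all genes), with a median of 0.08. Usp18, which restrains type I interferon signalling, fell by 2.96 in wild type (log2, adjusted p = 1.05e-08) and rose by 0.55 in the knockout (adjusted p = 0.00398). Ptpn6, which encodes the phosphatase SHP-1, fell 1.91-fold in wild type (adjusted p = 4.79e-08). Sh2b3, which encodes the adaptor LNK, rose 1.54-fold in wild type and 1.33-fold in the knockout (adjusted p = 5.07e-06 and 2.66e-04). In the knockout, 6 of these inhibitors rose and 2 fell (27.5% and 14.7% of all genes), with a median of 0.31. The slide block gave 6 that rose and 1 that fell.

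Of the 6 ubiquitin ligase partners of the SOCS box, 2 rose in wild type and 2 in the knockout, shares near those of all genes (26.4% and 27.5%), and the median was 0.08 in wild type and 0.12 in the knockout. Ube2f, the conjugating enzyme that neddylates the cullin, rose 1.66-fold in wild type (adjusted p = 2.57e-06) and 1.23-fold in the knockout (adjusted p = 0.00292). Tceb1 (elongin C) rose 1.12-fold in wild type (adjusted p = 0.0225), and Tceb2 (elongin B) changed by 0.07 (log2, adjusted p = 0.382). Under the slide block, 1 of the 6 rose in the knockout, and Tceb1 was not past the threshold (0.14, adjusted p = 0.210).

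Of 27 other genes with a SOCS box 13 were tested; in wild type 4 rose and 5 fell, with a median of -0.05, near the shares (26.4% and 30.8%) and the median (-0.04) of all genes. In the knockout 2 rose and 3 fell, with a median of -0.01, and with slide as a block 2 rose and 2 fell. Spsb1, an adaptor that targets inducible nitric oxide synthase, was 12.4-fold higher with IL-4 in wild type (adjusted p = 1.78e-06) and changed by -0.33 in the knockout (log2, adjusted p = 0.377), and it was well above background on 11 of 12 arrays. Asb2, which targets filamins, fell 5.51-fold in wild type and 2.38-fold in the knockout (adjusted p = 2.44e-07 and 1.18e-04). Wsb1 rose 2.04-fold and 1.39-fold (adjusted p = 1.62e-06 and 9.37e-04).

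The 6 other genes known as STAT5 targets all changed with IL-4 in wild type: 5 rose and 1 fell, against 26.4% and 30.8% of all genes, with a median of 0.81 against -0.04. In the knockout 3 rose, with a median of 0.39, and 3 rose with slide as a block, against 27.5% and 21.5% of all genes and a median of 0.05. Pim1, a survival kinase, rose 2.96-fold in wild type and 1.54-fold in the knockout (adjusted p = 8.59e-08 and 2.24e-04). Ccnd2, which encodes cyclin D2, rose 2.49-fold and 1.61-fold (adjusted p = 6.54e-08 and 3.33e-05). Mcl1, an anti-apoptotic BCL-2 relative, was the one that fell, by 1.73-fold in wild type (adjusted p = 1.37e-06), and changed by -0.07 in the knockout (adjusted p = 0.410). Under the slide block, the knockout changes of Stat4 (0.56), Il2rg (0.41), Sh2b3 (0.37), Usp18 (0.53, adjusted p = 0.0434), Ube2f (0.40), Asb2 (-1.02), Wsb1 (0.38), Pim1 (0.49) and Ccnd2 (0.56) stayed past the threshold. Those of Spsb1 (-0.61, adjusted p = 0.268) and Mcl1 (-0.11, adjusted p = 0.329) stayed short of it.

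**Figure D5:**
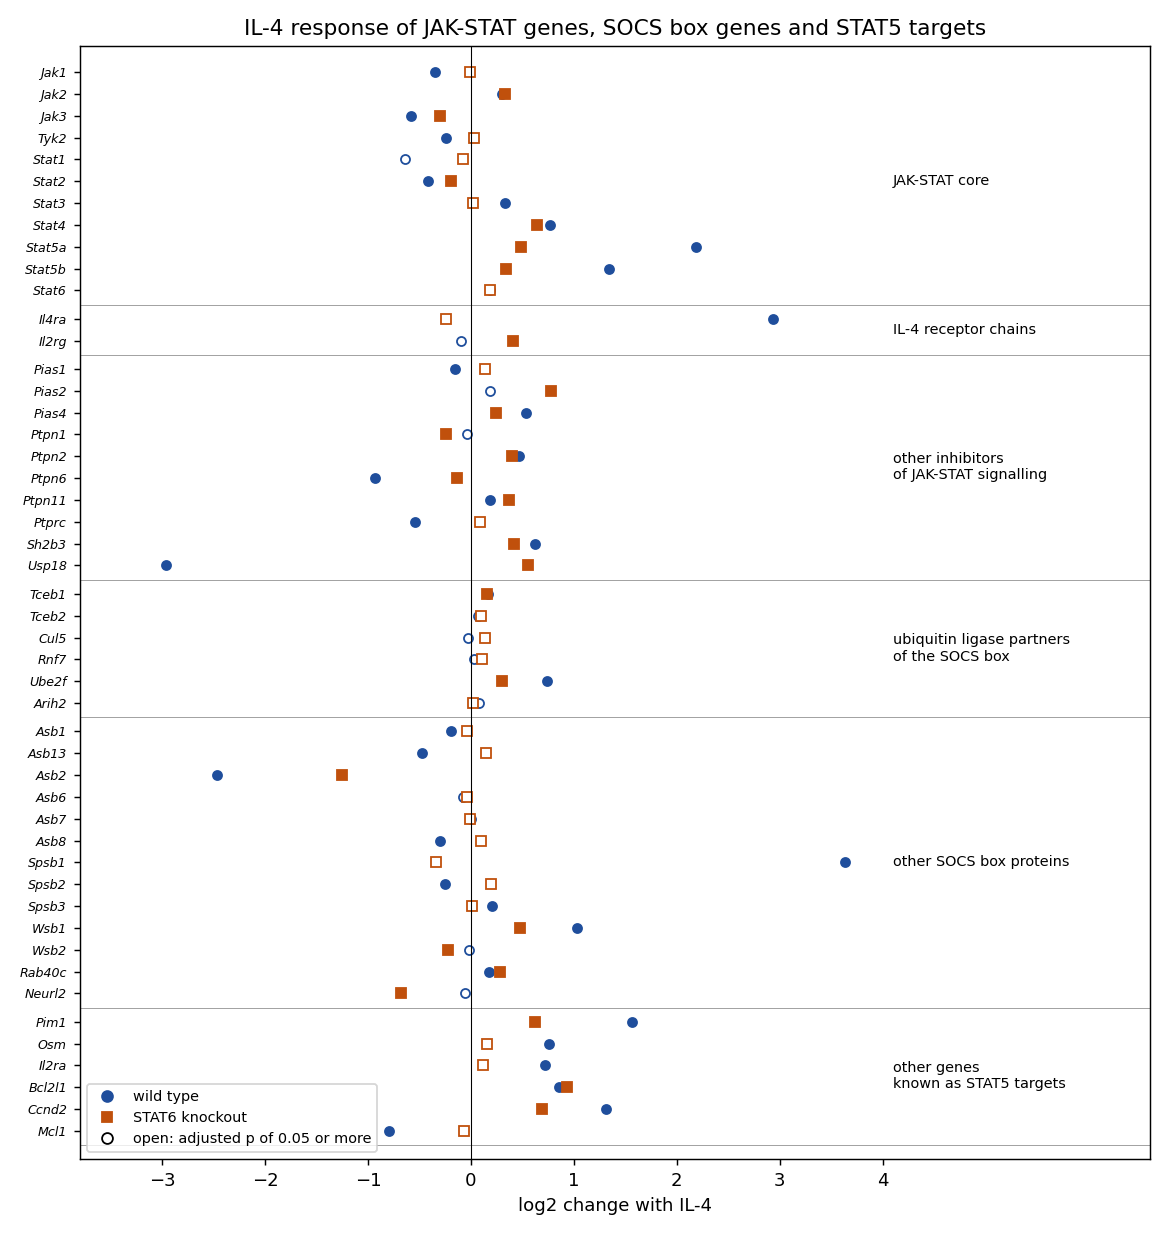
Log2 change with IL-4 (horizontal axis) of each tested JAK-STAT gene, IL-4 receptor chain, inhibitor, ubiquitin ligase partner, SOCS box gene and STAT5 target, by list; circles are wild type, squares the STAT6 knockout, and open symbols did not pass the test. Spsb1 and Il4ra show the largest wild-type rises, of 3.63 and 2.93, and Usp18 the largest fall, of -2.96.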

How the data were processed

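RNA from 12 B cell samples in 4 groups of 3 was hybridised to single-colour Agilent arrays. Per the file headers, Agilent Feature Extraction 10.7.3.1 produced the deposited scanner output (mm9), which holds the intensity of each spot, background subtracted and not normalized between arrays. The authors' deposited gene-level table is on the log2 scale, background subtracted and quantile normalized, per the file headers, and was used as an alternative.

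The log2 processed intensity minus the 75th percentile of each array (296 to 356 in intensity, over 59305 non-control spots) was used. Spots flagged as outliers in their own signal, 122 to 196 on an array, were dropped. Spots flagged for their local background alone were kept, and 732 to 1146 on an array had any outlier flag. A signal not above background is replaced by a surrogate in these files, which can change folds of dim genes. A probe was kept if 1 or more groups had it well above background on each of their 3 arrays, with at least 2 values in each group, which left 22940 of 55681 probes. The brightest kept probe stood for its gene; 11 of 14 SOCS probes were kept and each member was above background on all 12 arrays. Tests used limma 3.58.1 in R 4.3.3 with 5 contrasts, and adjusted p-values cover all 16497 genes. Array number, not read depth, limits precision.

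All 8 members are named. In each pathway list the 3 genes with the smallest adjusted p in wild type and the one with the largest interaction are named, with Stat6, Stat5a, Stat5b and Il4ra always. Likeness is Pearson's r over the 12 arrays, with 3 genes for each member called in the interaction, among tested genes named by a RefSeq symbol or synonym. The members and lists were chosen with earlier results of these data known. Alternatives were other scalings, background correction, filters, probe rules, variance settings, slide or replicate blocks and leaving out each array. The fit was tested on simulated data. Figures were drawn with matplotlib 3.10.9.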

Additional observations from a re-analysis of the deposited data

Results flagged for a closer look

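For 6 SOCS genes limma's interaction test called a difference in IL-4 response between wild type and knockout, with adjusted p over all genes. The difference in log2 response, wild type minus knockout, was 6.35 for Cish, 1.53 for Socs1, 5.59 for Socs2, 2.59 for Socs3, -0.42 for Socs4 and -0.91 for Socs5.

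The same test was passed by 13 of the named pathway genes. Most of these were named for a small wild-type adjusted p or a large interaction in these same data. Their count is therefore not to be set against the share of all genes. Larger responses in wild type were found for Il4ra (3.17), Spsb1 (3.97), Stat5a (1.70), Stat5b (0.998), Pim1 (0.94), Ccnd2 (0.63), Wsb1 (0.55) and Ube2f (0.435). Differences of the opposite sign were found for Usp18 (-3.51), Asb2 (-1.21), Ptpn6 (-0.80), Mcl1 (-0.73) and Il2rg (-0.50). Of all genes, 44.8% passed this test, 16.4% with a positive difference and 28.3% with a negative one. A positive difference can also come from a deeper fall in the knockout, and a negative one from a deeper fall in wild type. Over the whole lists, 2 of 11 core genes had a positive difference and 3 a negative one. The same counts were 1 and 1 of 2 receptor chains, 2 and 6 of 10 inhibitors and 1 and 0 of 6 ligase partners. For the other SOCS box genes they were 3 and 4 of 13, and for the STAT5 targets 4 and 1 of 6. With slide as a block, each of these 13 genes stayed past the threshold, Ube2f at 0.335 with the largest adjusted p (0.0182).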

How the results depend on the processing

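In the wild-type response, 5 members were called, 4 of them by at least 2-fold, under all 23 alternatives run. The interaction called 6 members under all 22, with 4 to 5 by at least 2-fold and Socs5 as low as -1.04. No change called in the main fit or an alternative had the opposite sign in the other. Without a call, signs differed for Socs3 (-0.29 to 0.22) and Socs6 (-0.27 to 0.08) in the knockout response. So did those of the Socs6 and Socs7 interactions, and of Socs2 and Socs7 between the genotypes without IL-4. The knockout response called 4 to 7 members and none by 2-fold, and Socs2 lost its call there with the mean of all kept probes (0.27, adjusted p = 0.0987), without a filter on dim probes and with the compared arrays alone. The count of 3 members differing without IL-4 was 5 under median scaling, where Socs4 (-0.30) and Socs6 (-0.36) were added, 1 without a filter on dim probes and 1 with slide as a block, and ranged from 1 to 3 when each array was left out in turn. It was 1 without wild-type control 2 or 3 or knockout control 2 or 3, fits that called 386 to 445 of all genes. Its count at 2-fold, 1 by Socs3, was 0 under median scaling and 0 with slide as a block, and ranged from 0 to 1, with 0 without knockout control 3. The count of 7 with IL-4 was 4 with slide as a block and 6 to 7 when arrays were left out. The cause was not tested.

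Median scaling moved the median log2 difference of all genes without IL-4 from -0.04 to -0.22, that of the knockout response from 0.05 to 0.20 and that of the interaction from -0.10 to -0.23. It moved the higher share of genes called from 40.4% to 8.37% without IL-4 and from 65.1% to 82.2% in the knockout response, and of those past 2-fold from 22.4% to 43.0% in the latter. Over all genes, 1929 were called without IL-4, against 5569 under median scaling, 271 with no filter, 905 with the compared arrays alone and 417 with slide as a block. The authors' deposited table and normexp gave 1262 and 1163 genes past 2-fold in wild type, against 2089.

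Deviations of same-numbered samples from their group means had r from -0.24 to 0.39 over 18 pairs (median -0.03, 2 over 0.1). For 36 pairs of different number r was -0.47 to 0.31 (median 0.00, 7 over 0.1). The 2 were knockout controls 1 and 3 with their same-numbered IL-4 arrays (0.32 and 0.39). With 3 arrays a group, such values cannot decide whether the numbers pair samples. With the replicate block, the counts of members were 5, 6, 6, 3 and 7 in the order of the report, as without it.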
